A study of Mus musculus with 3 samples.

Results

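The cells described here are endoderm-gated cells of the early mouse embryo, split by 3 transcription factor genes that mark the anterior and posterior ends of the primitive gut. The 3 embryos were wild-type mice of the mixed strain C57BL/6 x 129 SvEv, taken at embryonic day 8 with at most 1 somite by the protocol and at most 2 by the stage label, and their extraembryonic tissue had been removed. Each whole embryo gave 1 library of single cells, there was no treatment or mutant, and the embryo is the replicate throughout (n = 3). Barcodes were kept with 1500 to 8500 genes (7500 in embryo 2) and at most 10% mitochondrial UMIs, where a UMI (unique molecular identifier) stands for 1 captured transcript.

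Members were chosen by measured values. A cell had to carry a UMI of at least 2 of the 6 gate genes Trh, Gpx2, Cpm, Sox17, Foxa1 and Apela, fewer than 30 UMIs of Ttr and Apoa1 together per 10000, and none of Noto, Foxj1 or Kdr. Of 22168 barcodes that passed quality control, 3377 met this gate. The foregut side, called the Otx2/Hhex side below, held the 546 of them with a UMI of Otx2 or Hhex and none of Cdx2 (270, 160 and 116 cells in embryos 1, 2 and 3). The hindgut side, called the Cdx2 side, held the 1690 with a UMI of Cdx2 and none of Otx2 or Hhex (660, 487 and 543). Together these 2236 cells are the members, and no member barcode was shared between libraries. The other gated cells, 693 with UMIs of both sets and 448 with neither, belong to no side.

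As background, the definitive endoderm is at this stage a sheet on the ventral surface of the embryo that begins to fold into pockets at its anterior and posterior ends, the foregut and hindgut. Otx2 and Hhex encode homeodomain factors of the anterior endoderm, Hhex being needed for liver and thyroid, and Cdx2 encodes the caudal-type factor that specifies the intestine. Wnt and FGF signals are high at the posterior end of the embryo, Cdx factors act there upstream of the Hox genes, and the anterior end secretes inhibitors of Wnt, Nodal and BMP.

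The upstream windows of Hoxb8, T and Nepn are printed because the levels of these genes are described below and because CDX proteins are known to bind the letters TTTATG. Each is the 250 bases before a RefSeq transcript start (GRCm38.p6), 5′ to 3′ on the gene's strand, in lower case, with TTTATG or its reverse complement CATAAA in capitals. The windows lie at chr11:96281655-96281904 (plus strand, before Hoxb8), chr17:8434173-8434422 (plus strand, before T) and chr10:52391358-52391607 (plus strand, before a RefSeq start of Nepn). The Nepn window lies inside the gene as annotated by GENCODE, which spans chr10:52388972-52404625.
Hoxb8: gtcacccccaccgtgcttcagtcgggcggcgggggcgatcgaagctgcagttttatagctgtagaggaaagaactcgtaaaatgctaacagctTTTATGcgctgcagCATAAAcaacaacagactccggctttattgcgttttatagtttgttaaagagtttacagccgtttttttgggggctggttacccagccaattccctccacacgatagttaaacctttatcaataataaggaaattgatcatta
T: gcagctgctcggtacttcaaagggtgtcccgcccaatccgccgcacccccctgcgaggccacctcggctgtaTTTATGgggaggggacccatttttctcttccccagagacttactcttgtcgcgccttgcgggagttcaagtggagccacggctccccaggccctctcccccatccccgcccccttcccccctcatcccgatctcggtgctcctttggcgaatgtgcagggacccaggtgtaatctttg
Nepn: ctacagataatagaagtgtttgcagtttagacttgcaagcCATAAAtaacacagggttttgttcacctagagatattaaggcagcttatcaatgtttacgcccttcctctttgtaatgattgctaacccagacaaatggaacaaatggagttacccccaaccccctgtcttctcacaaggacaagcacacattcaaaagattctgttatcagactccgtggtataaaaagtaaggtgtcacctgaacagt
The Hoxb8 window held 2 matches, whose first printed base lay 157 and 143 bases before the start. The T window held 1 match at 178 bases and the Nepn window 1 at 210 bases. Of all 27025 genes with a RefSeq window of this length 12.4% had one with the letters, counting both strands, against 5 of the 22 Hox genes with a window (Hoxa7, Hoxb8, Hoxd3, Hoxd4 and Hoxd11), 2 of 11 caudal regulators (Sp8 and T) and 0 of 13 foregut regulators. The letters TAATCC, known as a motif of OTX proteins, were in a window of 7.21% of all these genes, in 0 of the 22 Hox genes, in 1 of the 11 caudal regulators (Sp8) and in 1 of the 13 foregut regulators (Isl1). A match is a description of these letters and not of binding.

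The values that chose the sides are given without a test. Levels are in CPM, the UMIs of a gene per 1000000 UMIs summed over the cells of an embryo and side. Otx2 stood at 149.9, 137 and 147 CPM in embryos 1, 2 and 3 on the Otx2/Hhex side, and Hhex stood at 50.1, 163 and 70.4. Cdx2 stood at 288, 291 and 256 on the Cdx2 side, and each gene was at 0 on the other side by construction. A side rested on a single UMI of its genes in 25.3% of Otx2/Hhex-side cells and 8.58% of Cdx2-side cells. Just outside the gate lay 4576 barcodes with 1 gate gene that met its other conditions, and 45 cells lay between 20 and 30 Ttr and Apoa1 UMIs per 10000 against 45 between 30 and 40. Among 950 barcodes rich in globin transcripts, none of them from embryo 1, 1.58% carried 2 or more gate genes, 0.211% carried 4 or more, 18.5% carried Hhex, 2.53% Otx2 and 7.47% Cdx2. Whether these were stray UMIs or transcripts of those cells was not tested.

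The name endoderm did not hold equally for all members. Exactly 2 gate genes were found in 65.7% of Cdx2-side cells and 20.1% of Otx2/Hhex-side cells, and 46.0% of Cdx2-side cells passed on Trh and Apela alone against 7.33% on the other side. A UMI of Six3, Sox1, Pou3f1, T, Nkx1-2, Wnt3a or Tbx6, genes of the neural plate, caudal epiblast and presomitic mesoderm, was present in 87.0% and 40.7% of cells, in that order. Foxa2, the pioneer factor of endoderm, averaged 5.09 ± 1.78 CPM (mean ± SD, n = 3) in Cdx2-side cells with exactly 2 gate genes and 70.05 ± 7.90 in those with 4 to 6. The same step for the simple-epithelial keratin Krt8 was from 158 ± 24.8 to 1220 ± 37.3, and for the adhesion molecule Epcam from 144 ± 8.77 to 638 ± 94.8. Nkx1-2, a factor of caudal epiblast and neuromesodermal progenitors, went the other way, from 150.3 ± 20 to 23.7 ± 12.2, as did Cdx4, from 108 ± 37.4 to 19.9 ± 10.6. On the Otx2/Hhex side the neural plate genes Pou3f1 and Six3 averaged 96.01 ± 17.5 and 63.97 ± 25.5 in cells with 2 gate genes and 11.2 ± 4.88 and 16.8 ± 9.51 in cells with 4 to 6. Most Cdx2-side cells by the rule thus had low levels of Foxa2, Krt8 and Epcam and high levels of Nkx1-2 and Cdx4. Every comparison is therefore also given for the cells with 4 to 6 gate genes, called gate-rich below. They numbered 350 on the Otx2/Hhex side (181, 107 and 62) and 415 on the Cdx2 side (150, 136 and 129), a limit added after these values were seen.

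**Figure D1:**
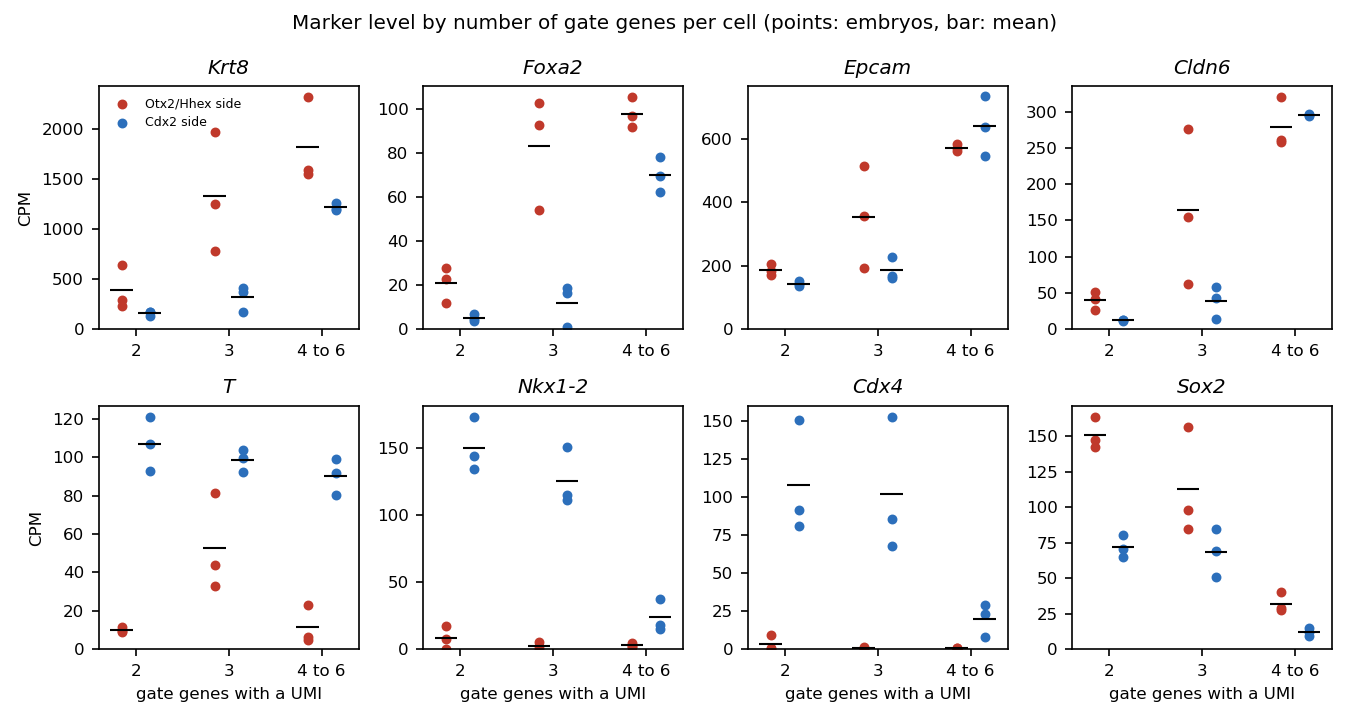
CPM (y axis, linear) of 4 epithelial or endoderm genes (top) and 4 genes of caudal epiblast or neural plate (bottom) in members with 2, 3 or 4 to 6 gate genes (x axis), 1 point per embryo and a bar at the mean. Foxa2 on the Cdx2 side averages 5.09 at 2 gate genes and 70.0 at 4 to 6, whereas Nkx1-2 goes from 150 to 23.7.

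For the tests, UMIs were summed per embryo and side, and the 3 sums of a side were compared with the 3 of the other by edgeR's quasi-likelihood test, with Benjamini-Hochberg adjustment over all genes tested. A log2 fold change, written log2, is the Otx2/Hhex side over the Cdx2 side unless stated, and is given ± its standard error (SE). Levels are CPM in embryos 1, 2 and 3, in that order. A gene rose, fell or was called only where its adjusted p was under 0.05. The sides were cut on the cells' own Otx2, Hhex and Cdx2 UMIs, so the tests show which other genes went with that cut. Where sums are said not to overlap, this describes the named genes and is no further test. The share of all genes tested whose sums did not overlap was not counted. By the rule, 943 of 12037 genes were higher on the Otx2/Hhex side (7.83%) and 644 were lower (5.35%). In gate-rich cells, 437 of 9983 were higher (4.38%) and 503 were lower (5.04%). The 347 genes higher in both were 36.8% of the first list and 79.4% of the second, the 229 lower in both were 35.6% and 45.5%, and 5 genes were called higher by the rule and lower in gate-rich cells. With the embryo as a block, which pairs the 2 sums of an embryo, 2944 and 1665 genes were called. Counts over all genes, here and in the comparisons below, include those genes used by the rule that passed the count filter. Otx2, Hhex and Cdx2, whose direction the cut fixed, are thus among them. In gate-rich cells the calls given below for Afp, Ccnb2, Cdkn1c, Foxa2, Foxa3, Gsc, Hhip, Hoxb2, Ihh, Smad7, Sparc, Spry4, Tbx1 and Tbx3 did not pass when 1 of the embryos was left out, with adjusted p-values then between 0.054 and 0.291 and signs that stayed as they were. By the rule the same held for the calls of Cdh1, Pax9, Shh, Sox2 and Sox9.

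Foregut regulators were higher at the Otx2/Hhex end. Of the 20 genes listed as anterior endoderm and foregut regulators, 16 were tested, and 13 rose and 0 fell by the rule (median log2 fold change 2.12, against 0.01 for all genes tested). In gate-rich cells 11 rose and 1, Foxa3, fell (median 1.52, against 0.00). A gene near 0 on the Cdx2 side could pass the count filter only through its Otx2/Hhex-side counts. The direction of such genes in these counts and medians was thus set in part by that filter. Nkx2-5, a homeodomain factor of pharyngeal endoderm and heart progenitors, stood at 28.4, 62.8 and 28.4 on the Otx2/Hhex side and 0.678, 1.78 and 0 on the Cdx2 side in gate-rich cells (log2 5.56 ± 0.51, adjusted p = 8.2e-06). Nkx2-3, its relative in pharyngeal and later gut tissue, stood at 22.1, 72.3 and 25.6 against 1.13, 2.13 and 0.392 (log2 4.99 ± 0.58, adjusted p = 5.6e-05). Embryo 2 was highest for both genes on the Otx2/Hhex side, and the 2 sides did not overlap. Isl1, a LIM-homeodomain factor of foregut endoderm and second heart field, stood at 173, 158 and 127 against 25.5, 22.4 and 18.8 (log2 2.81 ± 0.14, adjusted p = 4.8e-08).

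Hesx1, a homeodomain repressor of the anterior endoderm and forebrain, had 18.9, 23.8 and 9.15 CPM against 0, 0.355 and 0, or 139 UMIs against 1 in all, a ratio of 183 with a counting interval of 32.4 to 7296. Eya1 (log2 3.37 ± 0.28, adjusted p = 3.3e-06), a co-activator in pharyngeal organ formation, was also higher. So were the zinc-finger factor Gata4 (log2 1.52 ± 0.26, adjusted p = 0.0013) and the iroquois factor Irx1 (log2 1.52 ± 0.24, adjusted p = 0.0007). For Hesx1, Eya1, Gata4 and Irx1 every Otx2/Hhex sum lay above every Cdx2 sum. That side was mixed for these genes in the comparison by the rule given below. Gata4 was higher in cells with Hhex and no Otx2 than in cells with Otx2 and no Hhex, and Hesx1, Eya1 and Irx1 were lower. Gsc, a gene of the prechordal plate as well as anterior endoderm, stood at 5.19, 27.4 and 8.23 against 0.226, 0 and 1.96 (log2 4.31 ± 0.85, adjusted p = 0.0041). Tbx1, the T-box factor of pharyngeal endoderm, stood at 11.3, 8.44 and 20.1 against 4.97, 4.97 and 3.14 (log2 1.49 ± 0.34, adjusted p = 0.011). Pax9, a pharyngeal pouch factor, was called by the rule (log2 1.91 ± 0.29, adjusted p = 0.0011, or adjusted p = 0.0568 without embryo 1) and not in gate-rich cells (log2 0.56 ± 0.21, adjusted p = 0.14), where it passed with the embryo as a block (adjusted p = 0.0085). Sox2, which marks both foregut and neural plate, stood at 74.9, 64.3 and 79.05 against 55.04, 57.3 and 57.4 by the rule (log2 0.39 ± 0.10, adjusted p = 0.024). It stood at 28.6, 40.1 and 27.4 against 15.1, 12.1 and 9.02 in gate-rich cells (log2 1.40 ± 0.21, adjusted p = 0.00058). The rule's call for Sox2 did not pass without embryo 1 or without embryo 3 (adjusted p = 0.221 and 0.138).

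The 12 largest rises by the rule were, in order, Nkx2-3, Hesx1, Nkx2-5, Nkx2-9, Six3, Pkdcc, Cer1, Igfbp5, Fzd5, Lypd2, Has2 and Chst15. Pkdcc, a secreted kinase, had 408, 349.9 and 309 against 25.1, 21.7 and 14.5 in gate-rich cells (log2 4.13 ± 0.16, adjusted p = 3.1e-09). Has2, which makes hyaluronan, had 62.04, 88.7 and 58.6 against 3.61, 5.68 and 0.784 (log2 4.36 ± 0.30, adjusted p = 6e-07). Neither gene overlapped between the sides. Cer1, the secreted antagonist of Nodal, BMP and Wnt made by anterior endoderm, had 59.1, 26.4 and 55.8 against 7.002, 3.91 and 1.96 (log2 3.37 ± 0.35, adjusted p = 1.9e-05). The Wnt receptor Fzd5 had 32.3, 23.2 and 35.7 against 1.58, 1.78 and 1.96 (log2 4.12 ± 0.28, adjusted p = 5.5e-07). Also higher in gate-rich cells were the insulin-like growth factor binding protein Igfbp5 (log2 2.54 ± 0.25, adjusted p = 1.4e-05) and Lypd2 (log2 2.08 ± 0.21, adjusted p = 1.6e-05). The same held for the sulfotransferase Chst15 (log2 2.32 ± 0.21, adjusted p = 7.5e-06) and the homeodomain factor Nkx2-9 (log2 3.54 ± 0.45, adjusted p = 0.00013). Six3, a forebrain factor, had 24.5, 37.5 and 34.1 against 1.08, 2.29 and 1.43 by the rule (log2 4.39 ± 0.27, adjusted p = 2.4e-06). It had 13.8, 27.4 and 9.15 against 0.903, 0 and 0.784 in gate-rich cells (log2 4.75 ± 0.56, adjusted p = 6.2e-05). Among genes picked after their values in gate-rich cells were seen, the actin-binding Cald1 had 407, 428 and 406 against 51.3, 62.9 and 35.7 (log2 3.08 ± 0.15, adjusted p = 2.7e-08). The myosin heavy chain gene Myh7 (log2 3.03 ± 0.36, adjusted p = 6.2e-05) and the iroquois factors Irx3 (log2 2.97 ± 0.28, adjusted p = 8.8e-06) and Irx5 (log2 2.95 ± 0.29, adjusted p = 1.3e-05) were also among them. Of 8 cardiac mesoderm markers tested by the rule edgeR called 0 (2 at an unadjusted p under 0.05, 1 by DESeq2, 2 with the embryo as a block). Of 4 tested in gate-rich cells it called 0 (1, 0 and 1). Myh7, Nkx2-5 and Isl1, called higher in gate-rich cells, were not among those 4, so the list does not stand for all heart genes.

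**Figure D2:**
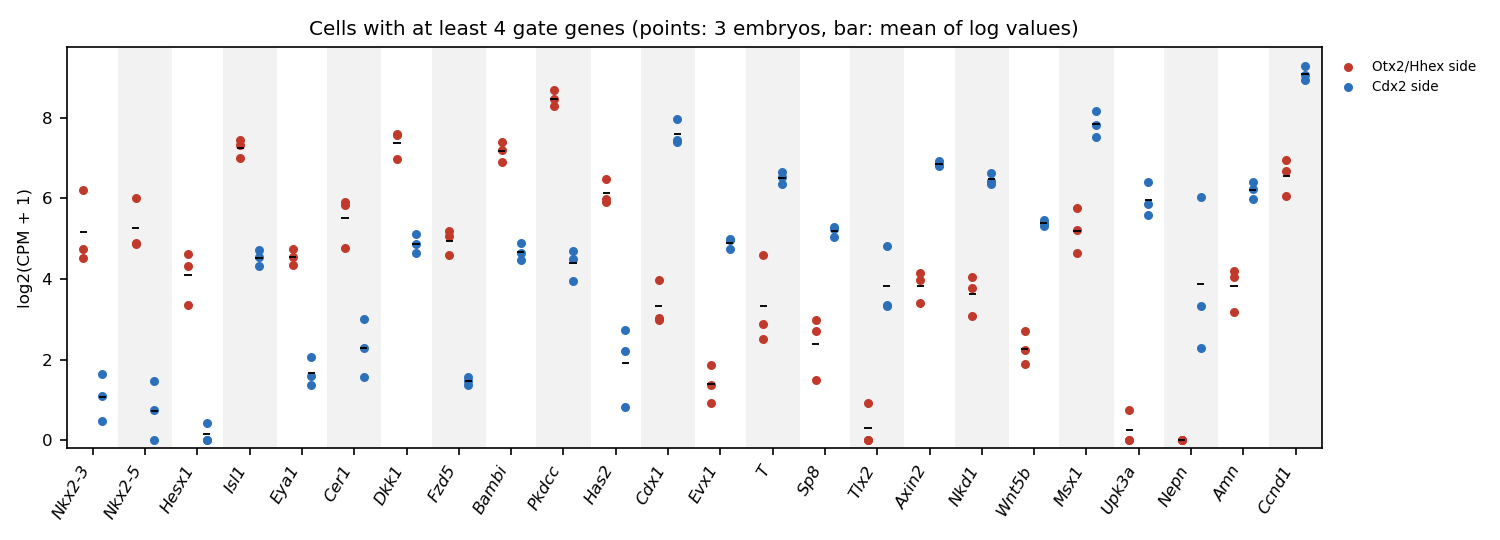
Log2 of CPM plus 1 (y axis) for named genes (x axis) in gate-rich cells, 1 point per embryo for the Otx2/Hhex side and the Cdx2 side, with a bar at the mean of the log values. The genes from Nkx2-3 to Has2 lie higher on the Otx2/Hhex side in every embryo, and those from Cdx1 to Ccnd1 lie higher on the Cdx2 side.

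At the Cdx2 end the caudal regulators were higher. By the rule, 19 of the 20 caudal and hindgut regulators were tested, with 8 lower and 3 higher (Grhl2, Sox9 and Hes1) on the Otx2/Hhex side (median -0.69). In gate-rich cells 17 were tested, with 11 lower and 1, Tbx3, higher (12 and 4 with the embryo as a block, median -2.47). The count filter limits this list as well, since genes near 0 on the Otx2/Hhex side could enter only through Cdx2-side counts. Cdx1, the close relative of Cdx2 and a Wnt and retinoic acid target, stood at 459, 337 and 336 on the Cdx2 side by the rule and 13.4, 10.3 and 31.97 on the other (log2 -4.44 ± 0.28, adjusted p = 2.7e-06). In gate-rich cells it stood at 247, 166 and 172 and 7.22, 6.86 and 14.6 (log2 -4.51 ± 0.23, adjusted p = 4.8e-08). Its level thus was lower in that narrower set while its fold change was about the same. Evx1, an even-skipped homologue of the posterior streak, stood at 30.3, 25.6 and 30.99 against 1.58, 2.64 and 0.915 (log2 -3.98 ± 0.28, adjusted p = 7.1e-07). Its antisense neighbour Evx1os was lower on the Otx2/Hhex side as well (log2 -3.94 ± 0.40, adjusted p = 1.6e-05). Whether the counting used strand is not stated in the sources used here, and this pair may share reads.

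Brachyury, the T-box factor of the primitive streak and its symbol T, stood at 91.9, 80.3 and 99.2 on the Cdx2 side and 4.74, 23.2 and 6.41 on the Otx2/Hhex side in gate-rich cells, log2 -3.10 ± 0.34, adjusted p = 3.5e-05. Its mean level on the Cdx2 side was 107 ± 14.2 in cells with 2 gate genes and 90.5 ± 9.55 in cells with 4 to 6, unlike that of Nkx1-2. Sp8 (log2 -3.20 ± 0.31, adjusted p = 1.2e-05) and Sp5 (log2 -2.47 ± 0.13, adjusted p = 5.9e-08), zinc-finger factors downstream of Wnt and FGF, were lower on the Otx2/Hhex side. Tlx2, a homeodomain factor of the posterior embryo, had 9.26, 27.01 and 9.02 against 0, 0 and 0.915, or 140 UMIs against 1. Mnx1, a factor of gut and notochord, had 13.6, 25.6 and 12.9 against 1.35, 4.22 and 1.83 (log2 -2.90 ± 0.43, adjusted p = 0.0005). For Sp8, Sp5, Tlx2 and Mnx1 the sides did not overlap. Nkx1-2 was lower on the Otx2/Hhex side by the rule (log2 -4.73 ± 0.26, adjusted p = 1.3e-06) and in gate-rich cells (log2 -3.34 ± 0.45, adjusted p = 0.00021), where its Cdx2-side levels were 37.7, 18.1 and 15.3. Cdx4 was lower in both as well (log2 -6.04 ± 0.41, adjusted p = 4.8e-06 and log2 -4.81 ± 0.61, adjusted p = 0.00012), with gate-rich Cdx2-side levels of 22.8, 28.8 and 8.24.

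Sox9 changed direction with the gate. It stood at 31.9, 29.5 and 26.8 on the Otx2/Hhex side and 19.1, 21.2 and 18.97 on the Cdx2 side by the rule (log2 0.61 ± 0.12, adjusted p = 0.0063). In gate-rich cells it stood at 23.01, 22.2 and 15.6 and 53.1, 50.5 and 48.2 (log2 -1.22 ± 0.15, adjusted p = 8.9e-05). The 2 fold changes had opposite signs, and the call by the rule did not pass without embryo 1 (log2 0.51, adjusted p = 0.138). Foxa3, the Foxa paralogue of gut endoderm, was not called by the rule (log2 0.34 ± 0.24, adjusted p = 0.46). It was higher on the Cdx2 side in gate-rich cells, at 44.7, 52.6 and 41.97 against 28.4, 20.1 and 14.6 (log2 -0.98 ± 0.19, adjusted p = 0.0032). Tbx3, by contrast, was higher on the Otx2/Hhex side there (log2 0.91 ± 0.19, adjusted p = 0.0068). By the rule it was not called (log2 0.60 ± 0.24, adjusted p = 0.14), though it passed with the embryo as a block (adjusted p = 0.0011). That side was mixed for Tbx3, which was far higher with Hhex and no Otx2 than with Otx2 and no Hhex, as given below.

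The Hox genes, whose order along the chromosome mirrors the order of their expression along the body, gave calls in a single direction. By the rule 25 of 39 were tested, and all 25 were lower on the Otx2/Hhex side (median log2 fold change -4.60, or -4.27 with genes at 0 put at their bound). A gene near 0 on the Otx2/Hhex side could pass the count filter only through its Cdx2-side counts. The shared direction of the tested Hox genes was thus set in part by that filter. In gate-rich cells 12 were tested and 11 were lower (median -3.82). Hoxb1 was the exception there (log2 -1.11 ± 0.42, adjusted p = 0.13), and with the embryo as a block it too was lower (adjusted p = 0.0046). Hoxb8 stood at 85.8, 117 and 75.7 on the Cdx2 side and 2.09, 2.30 and 4.32 on the Otx2/Hhex side by the rule (log2 -5.13 ± 0.26, adjusted p = 1.2e-06). In gate-rich cells it stood at 20.1, 41.6 and 27.5 and 1.58, 2.64 and 3.66 (log2 -3.68 ± 0.39, adjusted p = 2.5e-05). Hoxb9 stood at 10.4, 14.2 and 7.06 and 0.226, 0.528 and 2.75 there (log2 -3.83 ± 0.57, adjusted p = 0.00046), and Hoxb4 at 17.8, 21.7 and 12.6 and 0.677, 0.528 and 1.83 (log2 -4.32 ± 0.42, adjusted p = 1.2e-05). None of these 3 genes overlapped between the sides, and each of their Cdx2-side levels was lower than by the rule.

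Hoxa5 had 154 UMIs on the Cdx2 side and 0 on the Otx2/Hhex side in gate-rich cells, at least 38.9-fold higher with 3 UMIs over the group taken for 0. Its Cdx2-side level was 13.1, 19.2 and 16.5 there and 18.02, 17.1 and 19.1 by the rule, so that unlike the HoxB genes named above it held its level. Hoxa3 had 76 UMIs against 1, a ratio of 57.6 (10.0 to 2305). The anterior member Hoxb2 (log2 -1.28 ± 0.31, adjusted p = 0.016) had a smaller fold change than Hoxb4, Hoxb8 and Hoxb9, and Hoxb1 had the uncalled value above. Hoxaas3, a non-coding RNA of the HoxA cluster, stood at 27.6, 39.4 and 22.8 against 0.902, 3.69 and 4.58 (log2 -3.69 ± 0.40, adjusted p = 2.7e-05), and both non-coding RNAs tested were lower on the Otx2/Hhex side. By the rule 14 of the 39 Hox genes were too low to test, among them Hoxa13 with 61 UMIs on the Cdx2 side against 0.

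**Figure D3:**
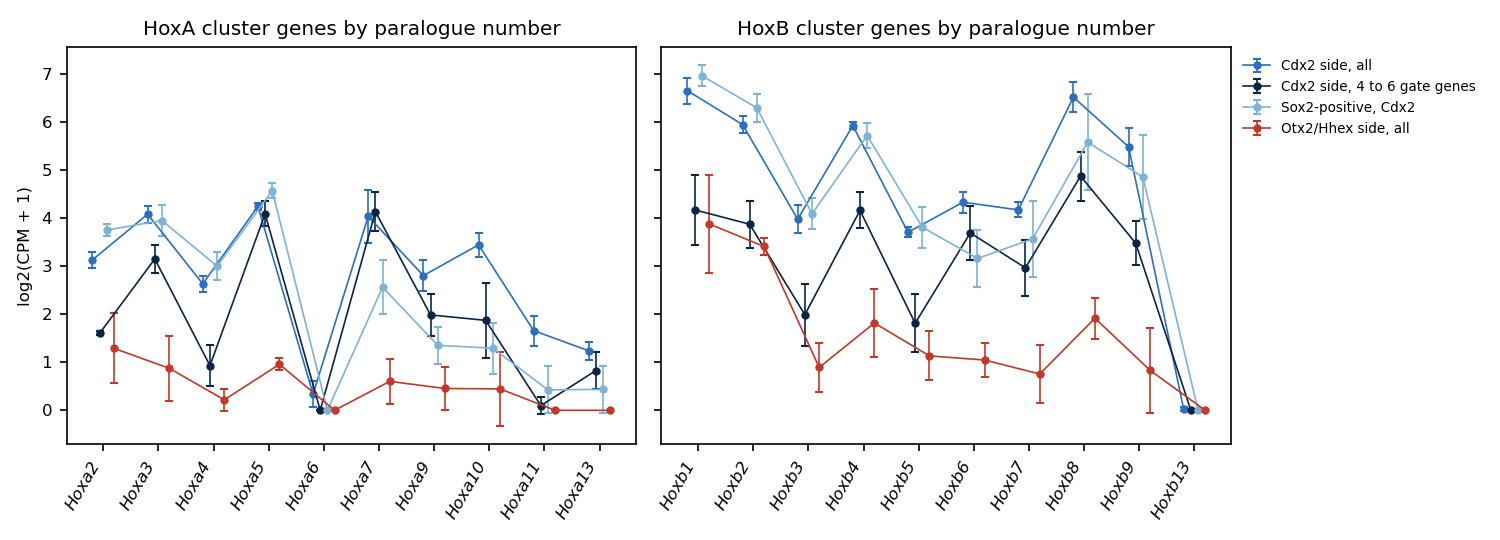
Log2 of CPM plus 1 (y axis, mean ± SD of 3 embryos) for HoxA genes (left) and HoxB genes (right) in order of paralogue number (x axis, an order of genes with no scale), in 4 groups of cells. The Otx2/Hhex side lies lowest at most genes, and among Cdx2-side cells the gate-rich cells lie below the whole side at Hoxb1, Hoxb4 and Hoxb8 and level with it at Hoxa5.

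Wnt genes were called in both directions. Of the Wnt list 49 were tested by the rule, with 15 higher and 15 lower, and 38 in gate-rich cells, with 12 higher and 14 lower. Some of those higher on the Otx2/Hhex side encode inhibitors. Dkk1, which blocks the Wnt co-receptor, stood at 125, 193 and 188 against 23.9, 33.8 and 28.2 in gate-rich cells (log2 2.58 ± 0.19, adjusted p = 9.2e-07). Sfrp1, which binds Wnt ligands, stood at 59.8, 44.3 and 80.5 against 14, 9.59 and 12.9 (log2 2.31 ± 0.22, adjusted p = 8.9e-06). Shisa2, which holds Frizzled receptors inside the cell, was also higher (log2 1.53 ± 0.17, adjusted p = 3.3e-05). Frzb and Cer1 were also called higher. No sums overlapped for Dkk1, Sfrp1 or Shisa2. Other inhibitors went the other way. Notum, an enzyme that inactivates Wnt ligands, was lower on the Otx2/Hhex side (log2 -3.07 ± 0.53, adjusted p = 0.0015) and too low to test without embryo 1, and Dkk4 had 113 UMIs on the Cdx2 side by the rule against 0 on the other, though 1 against 0 in gate-rich cells.

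Among the genes higher on the Cdx2 side were Wnt ligands, the agonist Rspo3 and feedback targets, while the agonist Rspo2 had 9 UMIs on the Otx2/Hhex side and 0 on the Cdx2 side in gate-rich cells. Axin2, a standard Wnt target, stood at 121, 109.8 and 111 against 16.7, 9.50 and 14.6 in gate-rich cells (log2 -2.97 ± 0.16, adjusted p = 7.9e-08). Nkd1, another feedback target, stood at 96.9, 81.4 and 85.5 against 7.45, 12.7 and 15.6 (log2 -3.06 ± 0.20, adjusted p = 4.8e-07). These levels exceeded those of the whole Cdx2 side, which were 88.2, 80.1 and 85.1 for Axin2 and 53.1, 55.6 and 52.9 for Nkd1. The ligands Wnt5b (log2 -3.54 ± 0.23, adjusted p = 4.2e-07) and Wnt6 (log2 -2.88 ± 0.28, adjusted p = 1.3e-05) were lower on the Otx2/Hhex side. So were the receptor Fzd10 (log2 -3.56 ± 0.36, adjusted p = 1.6e-05), the R-spondin Rspo3 (log2 -2.74 ± 0.18, adjusted p = 5.4e-07) and the effector Lef1 (log2 -0.93 ± 0.15, adjusted p = 0.00081). Lgr5, the R-spondin receptor known from intestinal stem cells, was not called by the rule (log2 -0.20 ± 0.24, adjusted p = 0.7). It stood at 30.3, 37.3 and 36.1 against 9.47, 11.6 and 7.32 in gate-rich cells (log2 -1.79 ± 0.20, adjusted p = 3.3e-05). Its 3 Cdx2-side sums lay above its 3 Otx2/Hhex-side sums there. Wnt3a, the ligand of the caudal epiblast, had 25 UMIs against 1 in gate-rich cells and was too low to test.

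FGF genes were more often lower than higher on the Otx2/Hhex side, and retinoic acid genes were called in both directions. Of 27 FGF genes tested by the rule 13 were lower and 7 higher on the Otx2/Hhex side, and of 20 in gate-rich cells 7 were lower and 3 higher (Flrt2, Fgfr2 and Flrt3). All 27 genes of the list passed the count filter by the rule. A gene near 0 on the Otx2/Hhex side could pass only through Cdx2-side counts, as with Fgf4 at 278 UMIs against 0 by the rule. The direction of such genes in these counts was thus set in part by that filter. The ligand Fgf8 stood at 60.8, 55.7 and 71.5 against 6.83, 6.12 and 14.7 by the rule and 18.5, 20.97 and 32.95 against 2.48, 3.17 and 8.23 in gate-rich cells (log2 -2.66 ± 0.38, adjusted p = 0.00032). The ligand Fgf17 (log2 -3.87 ± 0.49, adjusted p = 0.00012) and the targets Etv4 (log2 -2.87 ± 0.27, adjusted p = 8.5e-06) and Spry4 (log2 -1.58 ± 0.35, adjusted p = 0.0092) were lower on the Otx2/Hhex side in gate-rich cells. The receptor Fgfr2 was higher (log2 0.86 ± 0.15, adjusted p = 0.0021). Of 17 retinoic acid genes tested by the rule 4 were higher and 7 lower, and of 16 in gate-rich cells 2 were higher and 2 lower. The receptor Rarb stood at 34.7, 41.2 and 25.6 against 11.3, 9.95 and 9.02 (log2 1.79 ± 0.19, adjusted p = 3e-05). Stra6, the retinol uptake receptor, stood at 34.6, 50.1 and 35.3 against 3.83, 2.11 and 5.49 (log2 -3.40 ± 0.27, adjusted p = 2.4e-06). Its sums were higher on the Cdx2 side and did not overlap. Aldh1a2, which makes retinoic acid, was called by the rule (log2 -1.36 ± 0.23, adjusted p = 0.0023) and not in gate-rich cells (log2 -0.42 ± 0.37, adjusted p = 0.63).

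BMP feedback genes were higher at the Otx2/Hhex end. Of 30 Nodal and BMP genes tested by the rule 16 were higher and 3 lower, and of 25 in gate-rich cells 12 were higher and 3 lower. Bambi, a decoy BMP receptor, stood at 146, 167 and 118 against 28.5, 21.3 and 23.9 (log2 2.58 ± 0.15, adjusted p = 1.4e-07). Id3, a direct BMP target, stood at 755, 983 and 929.6 against 409.9, 469 and 575 (log2 0.91 ± 0.13, adjusted p = 0.00045). The inhibitory Smad6 (log2 1.39 ± 0.24, adjusted p = 0.0017) and Smad7 (log2 0.96 ± 0.17, adjusted p = 0.0021) and the Nodal co-receptor Cfc1 (log2 1.25 ± 0.18, adjusted p = 0.00034) were also higher. Msx1, also counted as a BMP target, went the other way at 182, 224 and 283 on the Cdx2 side against 23.9, 35.9 and 53.1 (log2 -2.73 ± 0.24, adjusted p = 4.7e-06), as did the activin antagonist Fst (log2 -1.43 ± 0.25, adjusted p = 0.0015). All of these 7 genes had the same sign by the rule. The Otx2/Hhex side was mixed for this list. By the rule its summed level was 3179 to 3708 CPM in cells with Hhex and no Otx2. In cells with Otx2 and no Hhex it was 1586 to 2104, which overlapped the 1602 to 1734 of the Cdx2 side. In gate-rich cells these ranges were 3279 to 3918, 1977 to 2337 and 1704 to 1968, in the same order.

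Among 12 Hedgehog genes tested in gate-rich cells, 2 were higher and 1 lower on the Otx2/Hhex side, against 4 and 1 of 16 by the rule. The receptor and target Ptch1 stood at 143, 184 and 129 against 85.6, 78.5 and 67.5 (log2 1.01 ± 0.14, adjusted p = 0.0002). The ligand-binding Hhip was also higher (log2 2.13 ± 0.42, adjusted p = 0.0041). Shh itself was called higher by the rule (log2 2.77 ± 0.53, adjusted p = 0.0049, or adjusted p = 0.0836 without embryo 3). It stood at 7.90, 32.2 and 5.49 against 6.32, 13.9 and 5.49 in gate-rich cells, where the sums overlapped (log2 0.86 ± 0.53, adjusted p = 0.42, or adjusted p = 0.037 with the embryo as a block). Ihh, the other gut ligand, was not called by the rule (log2 0.31 ± 0.37, adjusted p = 0.69). It was higher on the Cdx2 side in gate-rich cells, at 28.2, 48.7 and 28.2 against 18.7, 17.9 and 8.23 (log2 -1.05 ± 0.26, adjusted p = 0.02). Of the Notch and Eph-ephrin genes 8 were higher and 8 lower of 28 by the rule, and 3 and 4 of 22 in gate-rich cells (6 and 8 with the embryo as a block). Epha5, among the 12 largest falls by the rule (log2 -4.90 ± 0.47, adjusted p = 5.1e-05), and the FGF carrier Fgfbp3 (log2 -4.03 ± 0.30, adjusted p = 8.8e-06) were too low to test in gate-rich cells.

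Calls of pan-endoderm and epithelial genes depended on the gate. By the rule 20 of 26 were higher and 0 lower on the Otx2/Hhex side, and in gate-rich cells 4 of 25 were higher (Cldn3, Krt8, Foxa2 and Emb) and 4 lower (Krt19, Tmprss2 and Kitl among them), or 8 and 5 with the embryo as a block. Foxa2 stood at 78.01, 83.4 and 68.7 against 18.8, 26.6 and 18.8 by the rule (log2 1.88 ± 0.15, adjusted p = 1.1e-05). It stood at 105, 91.8 and 96.99 against 78.2, 69.7 and 62.4 in gate-rich cells (log2 0.52 ± 0.12, adjusted p = 0.0099). Krt8 stood at 1547, 2322 and 1590 against 1193, 1204 and 1262 there (log2 0.61 ± 0.13, adjusted p = 0.0071). Its partner Krt18 was called by the rule (log2 1.68 ± 0.29, adjusted p = 0.0026) and not there (log2 0.49 ± 0.17, adjusted p = 0.099, or adjusted p = 2.2e-05 with the embryo as a block). Krt19, a keratin of the later intestine, stood at 93.1, 139 and 126 on the Cdx2 side against 21.9, 54.9 and 30.2 (log2 -1.77 ± 0.26, adjusted p = 0.00045), with a rule value of log2 0.05 ± 0.33, adjusted p = 0.97. Epcam and the epithelial cadherin Cdh1 were called higher on the Otx2/Hhex side by the rule (log2 0.73 ± 0.12, adjusted p = 0.0023 and log2 0.67 ± 0.15, adjusted p = 0.012). Without embryo 2 Cdh1 did not pass (adjusted p = 0.112). Neither Epcam (log2 -0.13 ± 0.11, adjusted p = 0.61) nor Cdh1 (log2 0.31 ± 0.17, adjusted p = 0.34) was called in gate-rich cells, and Cdh1 passed with the embryo as a block (adjusted p = 0.018). These epithelial genes moved with the share of cells that had few gate genes, which was larger on the Cdx2 side, and its part in the rule's counts was not tested apart from this narrower set.

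Single carriers were higher at the Cdx2 end in cells with 4 to 6 gate genes. Of the apolipoproteins and visceral endoderm carriers that the rule did not use, 18 were tested by the rule with 2 higher and 1 lower (4 and 8 with the embryo as a block), and 15 in gate-rich cells with 0 higher and 9 lower (median -1.17). The summed levels of this list overlapped in gate-rich cells, at 2695 to 3780 CPM on the Otx2/Hhex side and 3263 to 4560 on the Cdx2 side. Apoe, the lipid carrier, stood at 1232, 1107 and 1342 on the Cdx2 side against 439, 611 and 621 (log2 -1.11 ± 0.13, adjusted p = 5.5e-05), with a rule value of log2 0.07 ± 0.14, adjusted p = 0.85. Amn, the subunit of an endocytic receptor of visceral endoderm and intestine, stood at 73.9, 62.5 and 83.9 against 8.12, 17.4 and 15.6 (log2 -2.56 ± 0.23, adjusted p = 6.9e-06). The X-linked homeobox gene Rhox5 stood at 149, 200.4 and 256 against 39.7, 51.7 and 48.5 (log2 -2.11 ± 0.20, adjusted p = 8.8e-06). The 3 genes did not overlap between the sides. Spink1, a protease inhibitor, was called by the rule (log2 1.53 ± 0.13, adjusted p = 2.2e-05) and not in gate-rich cells, where it stood at 2033, 1947 and 2786 against 2029, 1491 and 2331 (log2 0.24 ± 0.16, adjusted p = 0.46, or adjusted p = 0.00059 with the embryo as a block). The fetal serum protein Afp was lower on the Otx2/Hhex side (log2 -1.85 ± 0.51, adjusted p = 0.034). Ttr and Apoa1 were limited by the gate and so carry no test. Ttr stood at 119, 356 and 264 on the Otx2/Hhex side and 157, 128 and 166 on the Cdx2 side, and Apoa1 at 11.3, 42.8 and 34.8 and 42.5, 36.6 and 60.4.

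Nepn, a small leucine-rich proteoglycan gene of early gut endoderm, had 230 UMIs on the Cdx2 side and 0 on the other in gate-rich cells, at least 58.1-fold higher with 3 UMIs over the group taken for 0. Its Cdx2-side levels were 9.03, 63.96 and 3.92, so embryo 2 held most of them, and 230 of the 232 Nepn UMIs of the whole Cdx2 side lay in gate-rich cells. Without embryo 1 Nepn was too low to test. Upk3a, an uroplakin, had 588 UMIs against 3 there, a ratio of 148.5 (50.6 to 722), with levels of 46.8, 83.5 and 57.3. The next 3 genes were picked after their values were seen. Gprc5a, an orphan receptor, stood at 39.3, 55.8 and 39.6 against 1.58, 2.64 and 0.915 (log2 -4.61 ± 0.30, adjusted p = 4.3e-07). The secreted Lect2 stood at 27.8, 24.9 and 24.3 against 1.58, 2.64 and 0.915 (log2 -3.81 ± 0.28, adjusted p = 1.2e-06), and the phospholipase Pla2g7 at 26.6, 42.6 and 36.5 against 2.26, 4.75 and 0.915 (log2 -3.63 ± 0.33, adjusted p = 7.5e-06). Nepn, Upk3a, Gprc5a, Lect2 and Pla2g7 were among the 12 largest falls in gate-rich cells. That ranking admitted only genes with the same sign in every embryo, so their shared sign was a condition of choice. Of the peptide and secreted genes outside the gate, 13 were tested in gate-rich cells, with 2 higher (Igfbp5 and Pdgfa) and 5 lower (Nepn, Trap1a, Igfbp2, Cpn1 and Lgmn). Their summed levels overlapped, at 2182 to 2743 and 2536 to 2707 CPM in that order of sides. The growth factor Pdgfa stood at 448, 417 and 413 against 170.1, 124 and 165 (log2 1.51 ± 0.12, adjusted p = 1.5e-06). Igfbp2 stood at 80.8, 90.2 and 90.6 against 266, 302 and 289 (log2 -1.69 ± 0.11, adjusted p = 4.1e-07), and Trap1a was lower as well (log2 -1.83 ± 0.20, adjusted p = 2.9e-05).

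In matrix genes the ends differed by component. In gate-rich cells 2 of 23 were higher on the Otx2/Hhex side (Vcan and Sparc) and 6 lower (3 and 10 with the embryo as a block), and by the rule 5 of 25 were higher and 2 lower. The fibronectin gene Fn1 stood at 483, 438 and 425 on the Cdx2 side against 221, 241 and 198 (log2 -0.99 ± 0.10, adjusted p = 1.2e-05). The hyaluronan-binding proteoglycan Vcan stood at 119, 97.1 and 57.6 on the Otx2/Hhex side against 30.7, 41.9 and 19.6 (log2 1.66 ± 0.24, adjusted p = 0.00038). Sparc, a collagen-binding protein, was higher on the same side (log2 0.51 ± 0.14, adjusted p = 0.035). Of 23 glycolysis genes tested 5 were higher and 1 lower there (11 and 1 with the embryo as a block). Of 13 mitochondrially encoded genes edgeR called 0 in gate-rich cells, 0 at an unadjusted p under 0.05 and 0 by DESeq2, whereas 7 were lower on the Otx2/Hhex side with the embryo as a block. By the rule edgeR called 0 of the 13, with 3 at an unadjusted p under 0.05, 1 by DESeq2 and 6 with the block.

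Few cell division genes were called, whereas the cyclins Ccnd1 and Ccnd2 were called in gate-rich cells. Of 20 S-phase genes edgeR called 0 by the rule, with 3 at an unadjusted p under 0.05, 0 by DESeq2 and 4 with the embryo as a block. In gate-rich cells these counts were 0, 1, 0 and 1. Of 20 G2 and M-phase genes edgeR called 0 by the rule (2 unadjusted, 0 by DESeq2, 3 with the block) and 1, Ccnb2, in gate-rich cells (log2 -0.44 ± 0.13, adjusted p = 0.043). Over all genes tested 7.83% were higher and 5.35% lower by the rule, and 4.38% and 5.04% in gate-rich cells. With the block 2944 of 12037 were called by the rule. At such shares, counts near 0 among 20 genes do not show that these lists were unchanged. Ccnd1 stood at 532, 483 and 622 on the Cdx2 side against 101, 65.97 and 123 (log2 -2.49 ± 0.17, adjusted p = 5.6e-07). Ccnd2 stood at 730.1, 489 and 567 on the Otx2/Hhex side against 251, 162 and 198 (log2 1.58 ± 0.16, adjusted p = 1.3e-05). These 2 cyclins, which act with the same kinases, thus lay at opposite ends, and neither overlapped between the sides. By the rule Ccnd2 was not called (log2 0.29 ± 0.10, adjusted p = 0.1) except with the embryo as a block (adjusted p = 6.8e-05). The kinase inhibitor Cdkn1c was higher on the Otx2/Hhex side, at 329.6, 1049 and 618 against 250, 325 and 324 (log2 1.18 ± 0.29, adjusted p = 0.018). That side was mixed, since the cells with Otx2 and no Hhex described below lay under the Cdx2 side in every embryo. The kinase inhibitor Cdkn1a was lower on the Otx2/Hhex side, at 16.7, 15.3 and 24.7 against 45.4, 55.8 and 59.2 (log2 -1.54 ± 0.19, adjusted p = 8.4e-05).

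Markers of other cell types were read as summed levels. The 8 caudal epiblast and neuromesodermal genes summed to 368 to 455 CPM on the Cdx2 side and 131 to 174 on the Otx2/Hhex side by the rule, and to 180 to 204 and 66.1 to 106 in gate-rich cells, with no gene at 0. The 8 presomitic genes summed to 221 to 283 and 28.3 to 51.8 by the rule and to 79.6 to 109 and 21.0 to 25.9 in the narrower set, with 2 of them at 0 on the Otx2/Hhex side. The 10 anterior neural plate genes summed to 101 to 129 on the Otx2/Hhex side and 57.7 to 74.4 on the Cdx2 side by the rule, and to 46.7 to 69.7 and 9.59 to 23.9 in the narrower set, with 2 and 3 of them at 0. Their part in the Hox, Wnt and FGF differences was not tested, and those differences were as given above in gate-rich cells. The 8 allantois and mesenchyme genes summed to 234 to 333 on the Cdx2 side and 105 to 155 on the Otx2/Hhex side by the rule, and overlapped in gate-rich cells. The 8 surface ectoderm genes overlapped by the rule and summed to 96.1 to 104.5 on the Otx2/Hhex side and 64.7 to 76.04 on the Cdx2 side in gate-rich cells. There the 8 germ cell genes, which also overlapped by the rule, summed to 134 to 176 and 95.7 to 127. The 10 axial mesoderm genes overlapped in both sets, at 33.8 to 117 and 114 to 122 in gate-rich cells, where embryo 2 was the highest on the Otx2/Hhex side. The endothelial and cardiac lists overlapped in both sets of cells. Cells under 0.5% mitochondrial UMIs made up 12.8% of the Otx2/Hhex side (70 cells, 59 of them in embryo 1) and 2.31% of the Cdx2 side (39 cells, 30 of them in embryo 1). Without them 1546 genes were called by the rule, and 20 of 26 pan-endoderm and epithelial genes were again higher and 0 lower.

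The Otx2/Hhex share of the members was 29.0% in embryo 1 (95% exact binomial interval 26.1 to 32.1), 24.7% in embryo 2 (21.4 to 28.2) and 17.6% in embryo 3 (14.8 to 20.7), a mean of 23.8 ± 5.77% (SD, n = 3). With at least 3 gate genes it was 41.5 ± 8.66%, and with at least 4 it was 43.7 ± 11.1%. When each cell was first thinned to 5000 UMIs it was 35.2 ± 7.71%. The order of the embryos was the same in all of these. The share depends on which cells count as endoderm and on dissociation, and intervals cover counting error only. Median UMIs per cell were 22177, 13449 and 17007 on the Otx2/Hhex side and 27797.5, 16747 and 17719 on the Cdx2 side.

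Within the Otx2/Hhex side, cells with a UMI of Hhex and none of Otx2 (175) were compared with cells with a UMI of Otx2 and none of Hhex (273), and 98 cells had both. Median UMIs per cell were 15105.5, 12699.5 and 13372 with Hhex alone and 24322, 13824 and 17952 with Otx2 alone, and the part of depth in the differences was not tested. Log2 fold changes here are Hhex-only over Otx2-only. Of 8203 genes 492 were higher (6.0%) and 334 lower (4.07%), and in gate-rich cells 180 of 6965 were higher (2.58%) and 95 lower (1.36%). With the embryo as a block 1122 and 490 genes were called. Cells under 0.5% mitochondrial UMIs made up 22.9% of the Hhex-only cells (32 of 74 in embryo 1) and 8.79% of the Otx2-only cells (22 of 147 in embryo 1), and without them 781 genes were called by the rule and 259 in gate-rich cells, an alternative chosen after seeing the data. Gate-rich cells numbered 137 of the 175 Hhex-only cells (61, 49 and 27 in embryos 1, 2 and 3). They numbered 145 of the 273 Otx2-only cells (82, 39 and 24). The part of this unlike share in the rule's counts was not tested. Of 24 pan-endoderm and epithelial genes 14 were higher and 0 lower in Hhex-only cells by the rule, and 6 of 23 and 0 in gate-rich cells. Without the cells of few mitochondrial UMIs these counts were 15 and 0, and 7 and 0. Foregut regulators divided, with 5 higher (Gata4, Nkx2-5, Gata6, Foxa3 and Isl1) and 6 lower (Gsc, Hesx1, Sox2, Tbx1, Eya1 and Irx1) of 15 by the rule, and 3 and 5 of 12 in gate-rich cells.

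Gata4, which acts with Hhex in the ventral foregut, stood at 48.9, 40.8 and 39.3 in Hhex-only and 2.14, 3.16 and 2.62 in Otx2-only gate-rich cells (log2 4.12 ± 0.38, adjusted p = 1.7e-07). Nkx2-5 stood at 64.6, 96.7 and 61.4 and 12.3, 12.6 and 10.5 (log2 2.65 ± 0.27, adjusted p = 6e-07), and Gata6 at 113, 135 and 155 and 29.4, 18.96 and 34 (log2 2.27 ± 0.21, adjusted p = 1.9e-07). The groups did not overlap for these 3 genes. By rank the 8 largest rises were Cdh6, Rnase4, Col1a2, Clic6, Tmem27, Tbx3, Cdkn1c and Flt1. The cadherin Cdh6 stood at 115, 142 and 125 against 3.75, 3.16 and 2.62 (log2 5.17 ± 0.29, adjusted p = 3.5e-11). The chloride channel protein Clic6 stood at 204, 190 and 206 against 28.4, 23.7 and 13.1 (log2 3.04 ± 0.20, adjusted p = 4.8e-10), and the T-box factor Tbx3 at 125, 135 and 145 against 13.9, 26.9 and 20.9 (log2 2.89 ± 0.23, adjusted p = 1.4e-08). Cdkn1c, the growth-limiting kinase inhibitor, stood at 885, 2122 and 1252 against 95.3, 125 and 188 (log2 3.53 ± 0.26, adjusted p = 3.9e-09). In the cells with both Otx2 and Hhex by the rule, Cdh6 stood at 10.97, 15.02 and 23.5, nearer to Otx2-only cells (6.68, 2.81 and 5.25) than to Hhex-only cells (109, 143 and 125). Cdkn1c stood at 118, 216 and 252, again nearer to Otx2-only cells (129, 117 and 187) than to Hhex-only cells (867, 2149 and 1539). The secreted ribonuclease Rnase4 (log2 3.66 ± 0.50, adjusted p = 3.3e-05) and the collagen Col1a2 (log2 4.88 ± 0.47, adjusted p = 2.4e-07) were higher in Hhex-only gate-rich cells. So were Tmem27 (log2 2.62 ± 0.41, adjusted p = 0.0002) and the VEGF receptor Flt1 (log2 2.93 ± 0.41, adjusted p = 4.5e-05). Flt1 did not pass without embryo 1 (log2 2.05, adjusted p = 0.0634).

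Among the 8 largest falls by the rule were Pou3f1, Hesx1, Sox2, Tcf15, Ina, Cyp26a1 and Nkx2-9, of which 4 (Pou3f1, Hesx1, Tcf15 and Ina) were too low to test in gate-rich cells. By the rule the falls of Pou3f1 (log2 -4.14 ± 0.41, adjusted p = 1.8e-06) and Tcf15 (log2 -3.75 ± 0.44, adjusted p = 1.3e-05) were the largest of these 4 beside Hesx1. The neurofilament protein Ina (log2 -3.41 ± 0.36, adjusted p = 3.5e-06) followed. Of the listed anterior neural plate genes only 4 were tested by the rule (Pou3f1, Hesx1, Six3 and Sox3), and all 4 were lower in Hhex-only cells. A gene near 0 in Hhex-only cells could pass the count filter only through its Otx2-only counts. The shared direction of these 4 genes was thus set in part by that filter. Sox2 stood at 6.30, 3.50 and 2.46 in Hhex-only and 29.99, 64.8 and 49.7 in Otx2-only gate-rich cells (log2 -3.17 ± 0.42, adjusted p = 2.1e-05). Nkx2-9 stood at 2.36, 1.17 and 4.91 and 29.4, 52.1 and 31.4 (log2 -3.83 ± 0.47, adjusted p = 7e-06), and the retinoic acid hydroxylase Cyp26a1 at 3.15, 4.66 and 12.3 and 32.1, 52.1 and 54.9 (log2 -2.97 ± 0.41, adjusted p = 3.4e-05). These 3 genes did not overlap. Hesx1 stood at 2.36, 1.17 and 0 and 23.03, 39.5 and 13.1 in the same cells.

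The signalling lists split in this comparison as well. Of 19 Nodal and BMP genes tested in gate-rich cells, 9 were higher (Msx1, Cfc1, Msx2, Smad7, Smad6, Bambi, Id2, Id1 and Id3) and 1, Cer1, lower in Hhex-only cells. Of 21 Wnt genes 1, Fzd4, was higher and 6 lower, among them Dkk1, Shisa2 and Fzd5. Of 6 Hedgehog genes 1, Ihh, was higher and 3 lower (Hhip, Gli3 and Ptch1). Ihh stood at 26, 33.8 and 17.2 against 9.10, 6.32 and 5.23 (log2 1.79 ± 0.36, adjusted p = 0.0028), whereas Shh stood at 5.51, 4.66 and 2.46 against 8.03, 80.6 and 7.85, with embryo 2 far above the others in Otx2-only cells. The call for Ihh did not pass without embryo 2 (adjusted p = 0.0901), and without embryo 1 the gene was too low to test. Of 9 carrier genes 7 were higher and 1, Rhox5, lower. Apoe stood at 707, 890.4 and 869 against 307, 382 and 581 (log2 1.03 ± 0.17, adjusted p = 0.00024).

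**Figure D4:**
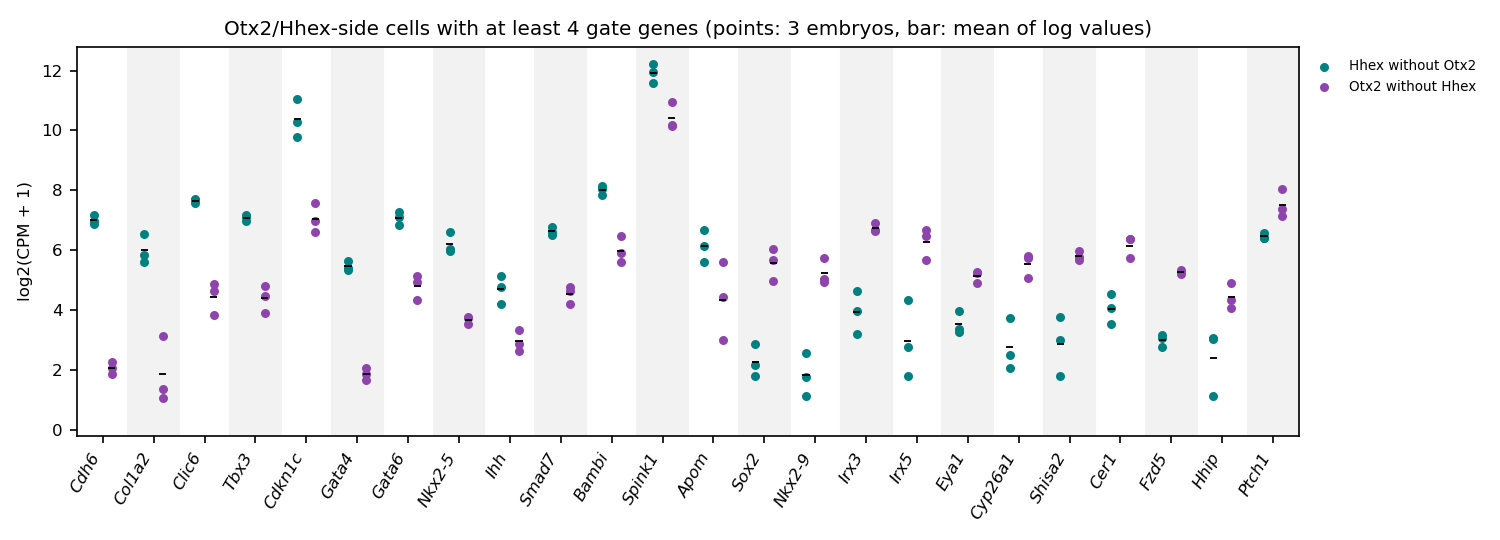
Log2 of CPM plus 1 (y axis) for named genes (x axis) in Otx2/Hhex-side gate-rich cells, 1 point per embryo for cells with Hhex and no Otx2 and for cells with Otx2 and no Hhex, with a bar at the mean of the log values. Genes from Cdh6 to Apom lie higher with Hhex, with embryos of the 2 groups close at Apom, and genes from Sox2 to Ptch1 lie higher with Otx2.

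The anterior-posterior difference was then set against that in Sox2-positive cells. The Sox2-positive cells carried a UMI of Sox2, known from the neural plate and epiblast, and none of the 6 gate genes, and met the other conditions of the gate. They were split into 1033 cells with a UMI of Otx2 and none of Cdx2, and 603 with a UMI of Cdx2 and none of Otx2 or Hhex. A value here is the log2 difference of the endoderm-gated sides minus that of the Sox2-positive cells, tested as an interaction. Of 12010 genes 180 were higher (1.5%) and 74 lower (0.616%), and in gate-rich cells 183 of 11447 were higher (1.6%) and 193 lower (1.69%). With the embryo as a block 1092 and 768 genes were called. Of 26 Hox genes tested by the rule edgeR called 0 (1 at an unadjusted p under 0.05, 0 by DESeq2, 1 with the block), and of 20 tested in gate-rich cells it called 0 (4, 1 and 2). Hoxb8 had a difference of log2 1.43 ± 1.18, adjusted p = 0.7 and Cdx1 of log2 -0.18 ± 0.32, adjusted p = 0.9. The SE of Hoxb8 exceeded 1 on the log2 scale, so a 2-fold difference would not have been detectable.

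Dkk1 was among the genes that differed. It stood at 125, 193 and 188 and 23.9, 33.8 and 28.2 on the 2 endoderm-gated sides in gate-rich cells and at 12.7, 10.7 and 10.8 and 18.1, 17.8 and 19.2 in the anterior and posterior Sox2-positive cells (log2 3.23 ± 0.26, adjusted p = 8.6e-07). Has2 stood at 62.04, 88.7 and 58.6 and 3.61, 5.68 and 0.784 against 7.04, 9.77 and 7.55 and 7.50, 10.4 and 7.94 (log2 4.45 ± 0.43, adjusted p = 6.4e-06). Rarb stood at 34.7, 41.2 and 25.6 and 11.3, 9.95 and 9.02 against 7.80, 4.26 and 3.997 and 14.3, 13.5 and 9.59 (log2 2.94 ± 0.34, adjusted p = 5e-05), so its sign was opposite in the 2 kinds of cells. Foregut regulators called higher numbered 4 of 15 by the rule (Gata4, Lhx1, Isl1 and Eya1) and 5 in gate-rich cells (Nkx2-5 and the same 4). The endoderm-gated anterior side included Hhex-only cells, and the anterior Sox2-positive group had no such cells. By the rule Gata4, Nkx2-5 and Isl1 were higher in Hhex-only than in Otx2-only cells, and Eya1 was lower. The part of this unlike split in the calls of the interaction was not tested.

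Genes with the opposite interaction included patterning factors. The endoderm-gated levels and the tests given here are those of gate-rich cells. Pax2 stood at 4.74, 4.75 and 4.58 and 25.8, 25.2 and 43.1 on the endoderm-gated sides and at 24.6, 28.2 and 23.1 and 3.63, 4.98 and 4.38 in Sox2-positive cells (log2 -5.24 ± 0.35, adjusted p = 1.1e-07). Sox9 stood at 23.01, 22.2 and 15.6 and 53.1, 50.5 and 48.2 against 58.7, 56.8 and 54.04 and 10.4, 12.1 and 9.59 (log2 -3.64 ± 0.19, adjusted p = 5e-09). Both were thus higher posteriorly in the gate-rich cells and higher anteriorly in the Sox2-positive cells. By the rule Sox9 was instead higher on the Otx2/Hhex side. Selenop, a selenium carrier, stood at 16.02, 21.1 and 21.96 and 138, 141 and 114 against 9.21, 7.99 and 7.70 and 6.53, 6.17 and 5.20 (log2 -3.28 ± 0.23, adjusted p = 1.5e-07). Cyp26a1 stood at 27.3, 34.3 and 43 and 32.5, 47.97 and 42.8 against 66.97, 54.5 and 61.3 and 4.35, 9.49 and 6.85 (log2 -3.43 ± 0.31, adjusted p = 3.4e-06), and here the endoderm-gated sides overlapped. Of the Wnt list 3 genes were called higher and 6 lower in gate-rich cells, the 6 being Lgr5, Shisa2, Fzd8, Wnt6, Axin2 and Nkd1.

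**Figure D5:**
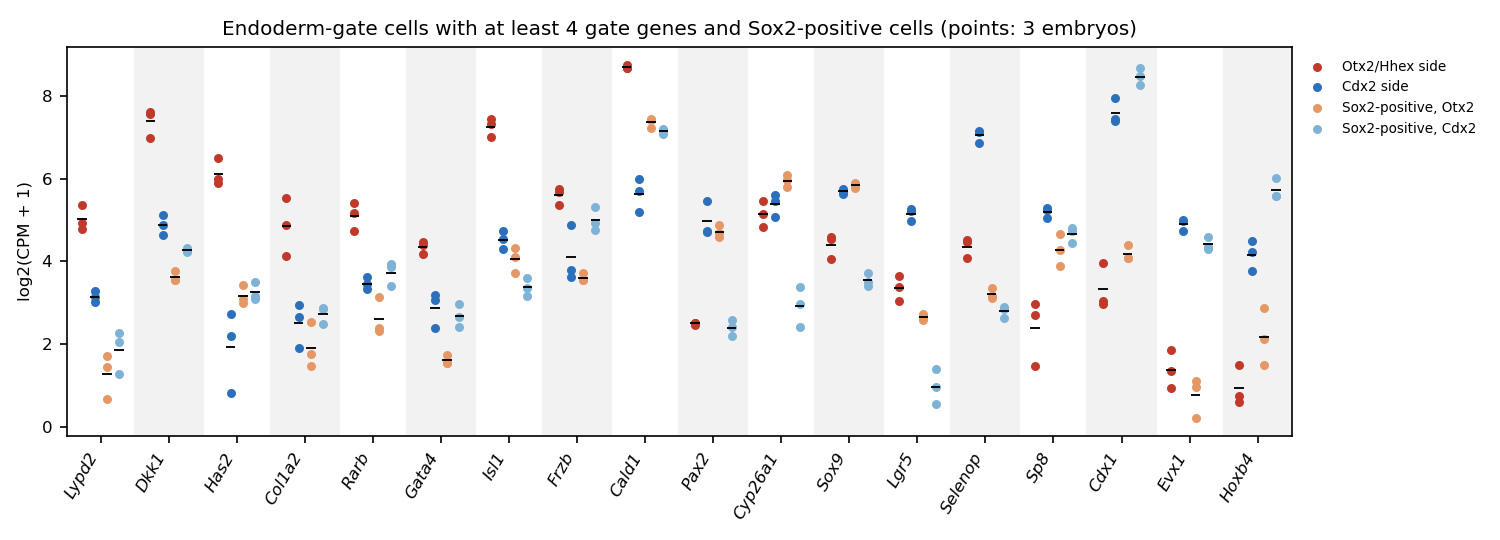
Log2 of CPM plus 1 (y axis) for 18 genes (x axis) in endoderm-gated gate-rich cells and in Sox2-positive cells, each split into an anterior group (Otx2 or Hhex in endoderm-gated cells, Otx2 in Sox2-positive cells) and a Cdx2 group, 1 point per embryo with a bar at the mean. Dkk1 and Has2 are high on the Otx2/Hhex side of the endoderm-gated cells alone, Sox9 and Pax2 run in opposite directions in the 2 kinds of cells, and Cdx1 and Evx1 run in the same direction in both.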

How the data were processed

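Single-cell libraries (10x Genomics, 3' chemistry) of 3 whole wild-type embryos were processed by the authors with Cell Ranger 3.1.0 per the submitters' processing notes, against mm10 (GRCm38) with an added EGFP sequence. The deposited values are raw UMI counts of 31054 features in filtered barcode matrices, with no normalization or removal of doublets stated for these matrices in the sources used here.

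From these counts 23533 barcodes were read, of which 22168 passed the limits on genes and mitochondrial UMIs, with a median of 26705, 14461 and 16242 UMIs in embryos 1, 2 and 3. The libraries shared 18 to 22 barcodes in each pair, none of them members. Members were found by the gate given above. The members, lists and comparisons were chosen with earlier results of these data known. UMIs were summed per embryo and class. The sums held 2314974 to 21201686 UMIs by the rule and 1092932 to 4432500 with 4 to 6 gate genes. A level (CPM) is UMIs per 1000000 of its sum, so fewer expressing cells and less RNA per cell cannot be told apart in it. Sums were tested with edgeR 4.0.16 (quasi-likelihood, TMM scaling, filterByExpr, Benjamini-Hochberg adjusted p under 0.05) in R 4.3.3, and DESeq2 1.42.0 was run as an alternative. The standard error (SE) is the log2 fold change divided by the square root of F. Genes used by the rule were left out of the lists and of the named genes, and no p is given for them. They were not removed from the fits, so counts over all genes include them. The named genes are members of the listed groups, the 12 largest changes each way between the sides and the 8 largest each way in the other comparisons, among genes past the threshold, of the same sign in every embryo and with a mean of at least 20 CPM in the higher group, leaving out predicted genes. Some genes picked by these rules are not reported here.

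The sums of an embryo come from the same animal, so embryo numbers pair them. The deviations of an embryo's 2 sums from their side means correlated at 0.411, 0.307 and 0.251 across genes by the rule. Those of different embryos correlated at -0.239 to -0.0794. Deviations within a side sum to 0 over the embryos, so these negative values follow from the positive ones and are no separate evidence. Scrublet in scanpy 1.11.5 marked under 0.5% of barcodes, so the top 6% of its scores stood for doublets, 23 and 84 of the members on the Otx2/Hhex and Cdx2 sides. In simulated counts with 100 genes changed 2-fold and 100 changed 4-fold, 98% and 100% were recovered between the sides over 12002 genes, with 4.35% false calls. The simulation used the rule's sums, changed only well-counted genes, gave all genes the median dispersion and had no embryo effect. Recovery of low genes or in gate-rich sums was not simulated. Alternatives were the embryo block, no filter, no TMM, a left-out embryo, thinned cells and stricter gates. Promoter windows came from RefSeq (GRCm38.p6) and were found for part of the listed genes, such as 22 of the 39 Hox genes. Gene coordinates came from the GENCODE annotation, which held 563 of the 564 genes named or listed.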

Additional observations from a re-analysis of the deposited data

Results flagged for a closer look

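The anterior-posterior difference differed between the endoderm-gated cells and the Sox2-positive cells, by edgeR's test of the interaction, for 254 genes by the rule and for 376 with 4 to 6 gate genes, 3 embryos in each group. The 16 named genes of the rule's test are given here as the log2 difference in endoderm-gated cells minus that in Sox2-positive cells. Shifted towards the Otx2/Hhex side relative to the Sox2-positive cells were Lypd2 (4.04), Dkk1 (3.35), Has2 (3.28), Col1a2 (3.08), Rarb (2.95), Rab15 (2.54), Gfpt2 (2.45) and Gata3 (2.44). Shifted towards the Cdx2 side in the same sense were Pax2 (-2.55), Cyp26a1 (-2.0), Selenop (-1.97), Utf1 (-1.83), Sox9 (-1.82), Cdh11 (-1.76), Fam57b (-1.73) and Slc7a3 (-1.69). A negative value does not by itself mean a higher level on the Cdx2 side. Sox9 was higher on the Otx2/Hhex side by the rule, though less so than in the anterior Sox2-positive cells. Dkk1, Has2, Rarb and Sox9 passed by the rule with each embryo left out. The other 12 did not pass without at least 1 of the embryos, with the same sign and adjusted p-values then between 0.052 and 0.343.

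With 4 to 6 gate genes Pax2 and Sox9 had differences of log2 -5.24 ± 0.35, adjusted p = 1.1e-07 and log2 -3.64 ± 0.19, adjusted p = 5e-09. Utf1, Cdh11 and Slc7a3 did not pass there (log2 -0.36 ± 0.61, adjusted p = 0.89, log2 -1.45 ± 0.60, adjusted p = 0.28 and log2 -0.56 ± 0.53, adjusted p = 0.75). Utf1, a gene of undifferentiated epiblast, stood at 7.24, 2.68 and 12.5 and 12.4, 9.59 and 9.93 CPM on the Otx2/Hhex and Cdx2 sides by the rule and at 3.16, 2.64 and 6.41 and 3.39, 0.711 and 0.784 with 4 to 6 gate genes. Its level thus fell with the number of gate genes, and the part of cells with few gate genes in these 3 results was not tested.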

How the results depend on the processing

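The members cannot be taken as one population, since the number of gate genes sets which cells count as endoderm, and 3 embryos of 1 genotype limit the precision. The comparison of the sides called 1587 genes by the rule, 2944 with the embryo as a block, 940 with 4 to 6 gate genes, 1005 with cells thinned to 5000 UMIs, 468 without cells that held a UMI of other cell types' genes, and 696 to 1020 with 1 embryo left out. With 4 to 6 gate genes it called 940, 1665 with the embryo block and 551 to 595 with 1 embryo left out. Hhex-only against Otx2-only cells gave 826 genes, 532 by DESeq2, 275 with 4 to 6 gate genes (490 with the embryo block, 173 to 199 with 1 embryo left out) and 379 to 806 with 1 embryo left out. The comparison with Sox2-positive cells gave 254 genes, 609 with no filter, 1092 with the embryo block and 39 to 93 with 1 embryo left out, and with 4 to 6 gate genes 376, 768 with the block and 124 to 179 with 1 embryo left out. Leaving out any embryo leaves 2 per group, and the cause of the other shifts was not tested.

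The Otx2/Hhex share of 23.8% became 41.5% with at least 3 gate genes, 43.7% with at least 4, 35.2% with cells thinned before the gate and 42.9% with at least 4 and without cells under 0.5% mitochondrial UMIs.

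Signs reversed between the rule and other gates. With at least 4 gate genes, at least 3, and without cells holding other types' genes, in that order, the log2 fold change was -0.98, -0.67 and -0.34 for Foxa3 (0.34 by the rule), -1.22, -0.63 and -0.091 for Sox9 (0.61), -1.05, -0.76 and -0.58 for Ihh (0.31), -1.11, -0.85 and -0.52 for Apoe (0.07) and -1.77, -1.30 and -1.29 for Krt19 (0.05). Krt19 was also at -0.27 with at least 2 UMIs of the side genes, Epcam at -0.13 with at least 4 gate genes and Lgr5 at 0.0825 in thinned cells. With 1 embryo left out the rule's values ranged from -0.0395 to 0.515 for Foxa3, from -0.0119 to 0.558 for Ihh, from -0.0357 to 0.113 for Apoe and from -0.151 to 0.17 for Krt19, and those of Utf1 in the comparison with Sox2-positive cells at 4 to 6 gate genes from -0.93 to 1.30. No sign reversed with the embryo block.

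With 4 to 6 gate genes, calls that did not pass without embryo 1 were Afp, Ccnb2, Foxa2, Hhip, Hoxb2, Sparc and Tbx1 (adjusted p from 0.054 to 0.291), without embryo 2 Afp, Ccnb2, Cdkn1c, Foxa2, Foxa3, Gsc, Hoxb2, Ihh, Smad7, Sparc, Spry4 and Tbx3 (0.0543 to 0.187) and without embryo 3 Ccnb2, Cdkn1c, Foxa2, Ihh, Spry4, Tbx1 and Tbx3 (0.0576 to 0.158). Gsc then had a log2 fold change of 2.75 and Cdkn1c of 0.73 without embryo 2.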

Other observations

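Gated cells outside both sides were not compared. The 693 cells with UMIs of Cdx2 and of Otx2 or Hhex had a median of 54472.5, 34771 and 40852 UMIs in embryos 1, 2 and 3, against 22177, 13449 and 17007 on the Otx2/Hhex side. Their levels were 264, 182 and 198 CPM for Cdx1, 28.1, 28.7 and 24.4 for Dkk1, 85.1, 78.7 and 57.4 for Pkdcc and 18.9, 14.4 and 13.8 for Foxa2, and Hhex was low in them at 6.15, 8.98 and 5.99. The 448 cells with none of these 3 genes had a median of 15806, 10450 and 12177.5 UMIs. They held 47.5, 61.5 and 48.6 of Cdx1, 0.344, 6.72 and 3.35 of Hoxb8, 122, 132 and 74.3 of Pkdcc, 26.1, 26.4 and 27.4 of Dkk1 and 68.5, 63.1 and 76.5 of Foxa2. In the cells with none of the 3 genes, Pkdcc and Cdx1 were thus both present, at levels between those of the sides by the rule.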
